A study of Arabidopsis thaliana with 16 samples.

Results

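The step from the zone of cell elongation to the zone of root hair emergence was measured in Arabidopsis thaliana roots on standard medium, by setting 2 arrays of longitudinal zone 4 against 2 arrays of longitudinal zone 3. These 4 arrays were chosen by their labels from the 16 of the series, and all 22746 probe sets other than the controls were tested. Seedlings of the Columbia ecotype, 5 days old, were moved to fresh standard medium and dissected 1 h later, so the transfer is shared by every array. Zone 3 was the 200 to 300 µm above the meristem that ended where hairs start to show, and zone 4 was the next stretch of about 1000 µm. About 15 sections were pooled for each replicate. Zone 1, the 150 µm tip, and zone 2, the next 200 µm, also on standard medium, gave the levels nearer the tip. The same 2 older zones from roots moved to medium with 140 mM NaCl for 1 h were used for a further comparison. Each of these groups had 2 arrays, and nothing in the labels says that the replicates came from separate cultures, so p-values may cover technical spread only.

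In the elongation zone, cells that have stopped dividing lengthen while proteins such as expansins and xyloglucan enzymes loosen their walls and microtubules guide the laying down of cellulose. Above it, elongation ends, some epidermal cells grow hairs from their tips, the endodermis lays down lignin and later suberin as barriers, and xylem cells thicken their walls. Class III peroxidases are secreted haem enzymes that can cross-link or loosen cell walls, and many members of this large family act in roots. Whole sections hold all cell layers, so fewer cells of a type and less RNA per cell cannot be told apart.

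Values are MAS5 signals on a linear scale, and differences are of log2(signal + 16), zone 4 minus zone 3, with limma's standard error (SE) and Benjamini-Hochberg adjusted p. The added 16 makes the difference of a dim gene smaller than the ratio of its signals. A signal under 40.8, the 40th percentile of the 8 standard arrays, is called low here, and low signals were not ranked against each other. Families of genes known only by locus number were put together from general knowledge of the Arabidopsis annotation, because the probe table gives those genes no function. The median signal was 66.3 and 65.8 in the zone 3 arrays and 76.9 and 75.6 in the zone 4 arrays. Replicate arrays correlated at 0.983 in zone 3 and 0.981 in zone 4, and arrays of the 2 zones at 0.879, over all probe sets on the log2 scale.

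Of the 22746 probe sets, 7513 (33%) differed between zones 3 and 4 at an adjusted p under 0.05. The 4022 that were higher in zone 4 made up 17.7% of those tested, and the 3491 that were lower made up 15.3%. The 2 arrays of one zone did not overlap with those of the other for 34.6% of probe sets in the higher and 28.8% in the lower direction. The difference was at least 2-fold for 2363 of the higher and 1711 of the lower probe sets, and at least 32-fold for 41 and 13. Centring each array on its median lowered every difference by 0.17 and turned the split of calls from 53.5% higher to 40.6% higher, so a small difference in either direction depends on the scaling. Of the 4022 higher probe sets, 3167 had their highest mean of all 4 standard zones in zone 4, while 781 were highest in zone 1. Of the 3491 lower ones, 1599 were highest in zone 3. Classes of called probe sets were set on zone means after the values were seen. For 168, the means were low in zones 1 to 3 and reached 200 or more in zone 4. Another 92 had means of 200 or more in zone 3 and low in zone 4, but only 4 of these were also low in zones 1 and 2. Single arrays of these probe sets could lie outside the limits.

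**Figure D1:**
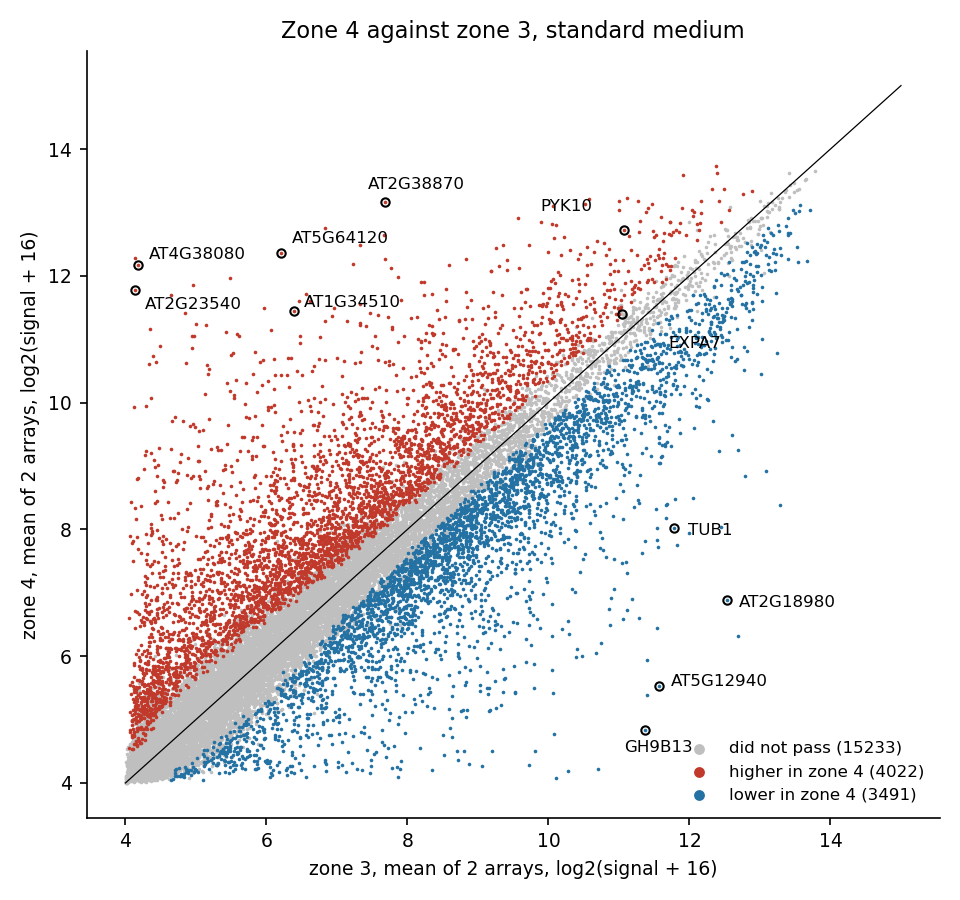
Mean of 2 zone 4 arrays against mean of 2 zone 3 arrays on standard medium, as log2(signal + 16), for 22746 probe sets. Red points (4022) were higher and blue points (3491) lower in zone 4 at an adjusted p under 0.05, the line marks equal signals, and circles mark named genes; AT4G38080 and AT2G23540 rise from the floor of the zone 3 axis, and GH9B13 falls to near the floor of the zone 4 axis.

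Genes of root hairs were set against the zone labels with 2 lists, both made with earlier results of these data known. Of a first list of root hair growth genes 6 were measured, of which 2 rose (EXPA18 and XTH26), 1 fell (SCN1) and 3 did not pass (EXPA7, FER and ANX1), with a median difference of 0.20. A second list of 11 measured genes known to be active in hair cells was put together after the probe table had been seen and shares 4 genes with the first. Of these 11, 8 rose and 1 fell, with a median difference of 1.55, whereas 30.4% of the 13350 named genes passed, 15.8% rose and 14.6% fell, and their median was 0.03. Of the second list, 10 genes had already risen between zone 2 and zone 3, a step at which 39.8% of all probe sets passed and 19.4% rose. EXPA18, an expansin of hair cells, read 1112 and 1603 in zone 3 and 4065 and 3839 in zone 4, a difference of 1.55 (SE 0.19, adjusted p = 0.000263). Both zone 4 arrays lay above both zone 3 arrays. EXPA7, its close relative, read 2181 and 2016 in zone 3 and 2506 and 2838 in zone 4 and did not pass (0.34, adjusted p = 0.0914). It did pass after quantile normalization, with an adjusted p of 0.0328. In zone 2 the mean signal was 24.1 for EXPA18 and 24.7 for EXPA7, so both genes were already far above that level in zone 3.

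XTH26, a xyloglucan enzyme, was low in zone 3 at 3.40 and 3.68 and read 197 and 139 in zone 4 (difference 3.22, SE 0.21, adjusted p = 1.06e-05). AT1G34510, on the list of hair genes and of peroxidases, read 46.8 and 88.5 in zone 3 and 3200 and 2318 in zone 4 (5.08, SE 0.28, adjusted p = 4.41e-06). These were the 2 largest rises of the second list. AT4G26010, on both lists too, read 966 and 1521 in zone 3 and 5652 and 5226 in zone 4 (2.15, adjusted p = 8.73e-05). AT3G54580, AT5G04960 and AT3G49960 rose by 1.69, 1.70 and 0.87. GH9C1, a cellulase-like enzyme, rose by 0.58 (adjusted p = 0.0331), and AT3G07900 stood at -0.42 (adjusted p = 0.152). The 1 member that fell was SCN1, which keeps hair growth to a single site, with 1840 and 2197 in zone 3 and 1469 and 1308 in zone 4 (-0.53, adjusted p = 0.0144). The GH9C1 call ended without any 1 of the 4 arrays (adjusted p = 0.0528 to 0.185). The SCN1 call ended without zone 3 replicate 6 or zone 4 replicate 8 (adjusted p = 0.101 and 0.0836), and that of AT3G49960 without zone 3 replicate 5 or zone 4 replicate 7 (adjusted p = 0.0845 and 0.0858). FER, a receptor kinase needed for hair growth, read 501 and 563 in zone 3 and 539 and 544 in zone 4 (0.03, adjusted p = 0.938). ATMYC1, a bHLH regulator of hair cell fate, read 236 and 199 in zone 3 and was low in zone 4 at 15.4 and 13.3 (-2.94, SE 0.15, adjusted p = 3.64e-06).

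The 12 named genes that rose most had mean signals of 188 or less in zone 3 and of 976 or more in zone 4. AT4G38080 read 1.52 and 2.79 in zone 3 and 3680 and 5461 in zone 4, a difference of 7.95 (SE 0.25, adjusted p = 4.25e-07). It was also low in zones 1 and 2, with means of 13.1 and 1.00. AT2G23540, AT3G50400 and AT1G74460, 3 members of the GDSL lipase list, rose by 7.58 (SE 0.29), 7.05 (SE 0.22) and 6.49 (SE 0.19). GDSL enzymes form a large family of lipases and esterases, some of which build or cut cutin and suberin. AT2G23540 read 1.42 and 1.63 in zone 3 and 2474 and 4483 in zone 4. AT3G50400 read 11 and 6.89 and then 2985 and 3607. AT1G74460 read 34.5 and 22.7 and then 4133 and 3819. The counts of the whole family lay near those of all named genes: of 64 measured members 10 rose (15.6%) and 8 fell (12.5%), with a median of -0.03, and 38 were low in both zones.

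AT3G53980, on the list of the lipid transfer family, read 18.6 and 19.9 in zone 3 and 1960 and 2807 in zone 4 (6.07, SE 0.42, adjusted p = 1.29e-05). AT2G38870 read 177 and 200 in zone 3 and 8883 and 9446 in zone 4 (5.49, SE 0.13, adjusted p = 1.04e-07). The remaining genes of this set outside the peroxidase family, AT5G12420, AT2G37750 and AT5G09480, rose by 6.25, 6.11 and 6.03. JAL33, a jacalin-related lectin, read 77.6 and 66.7 in zone 3 and 2228 and 3975 in zone 4 (5.09, SE 0.31, adjusted p = 7.71e-06). Its means were 1035 at the tip and 158 in zone 2, so the transcript was high at both ends of the sampled root.

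**Figure D2:**
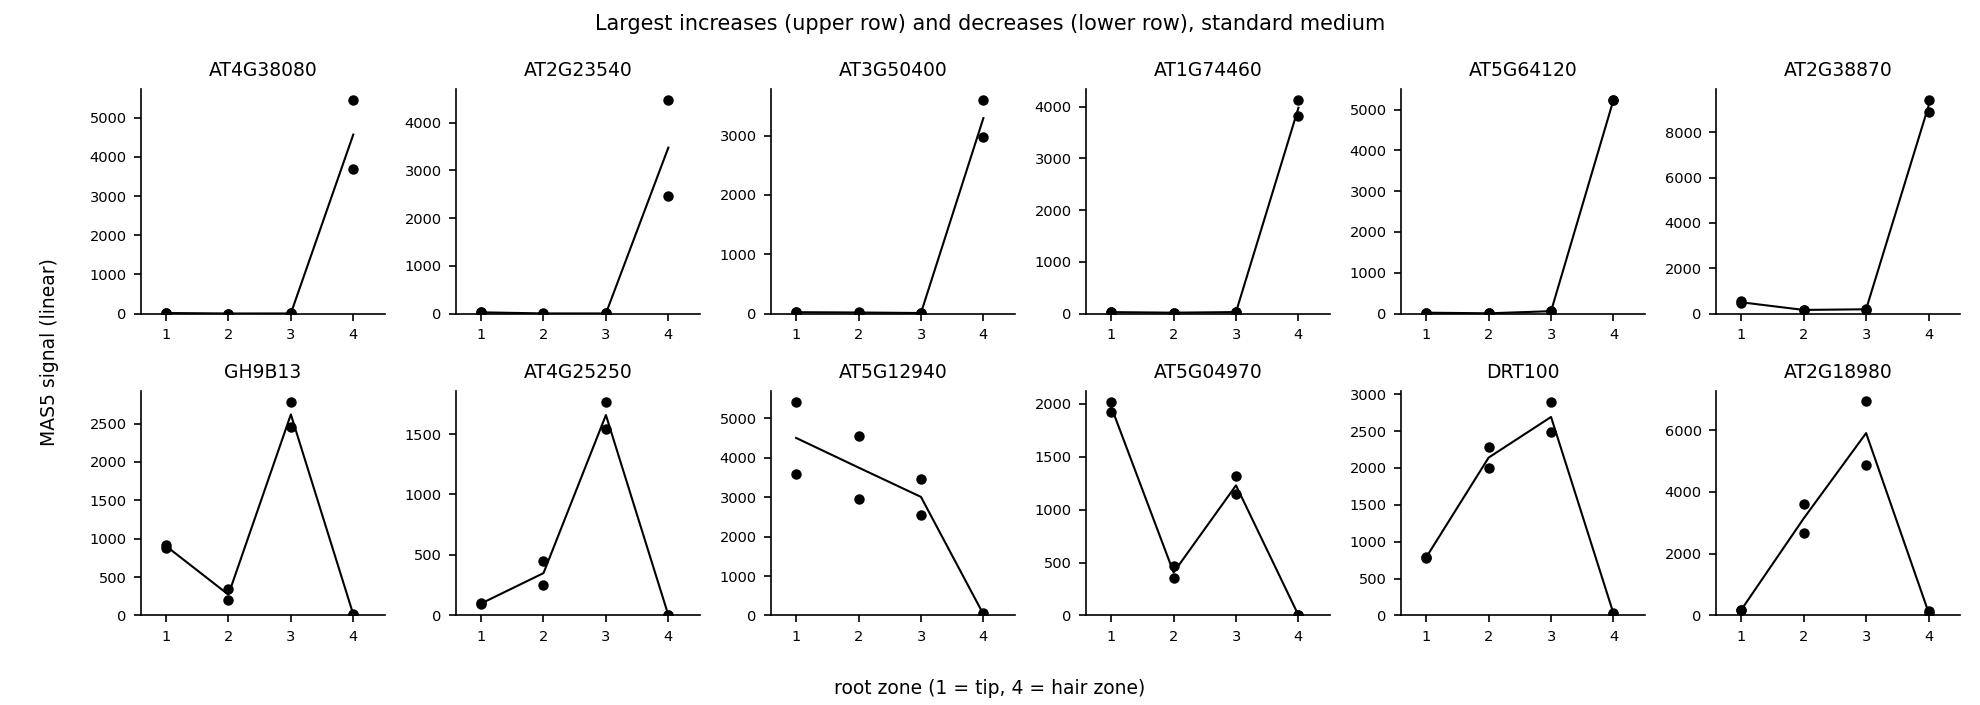
Linear MAS5 signal in the 4 zones on standard medium for 6 of the 12 named genes with the largest increases (upper row) and 6 of the 12 with the largest decreases (lower row); points are single arrays, 2 per zone, and lines join the means. The upper genes sit near the axis until zone 4, whereas the lower genes are above 1000 in zone 3 and under 150 in zone 4.

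Class III peroxidases were among the largest changes in both directions. Of 53 measured members, 26 rose (49.1%) and 10 fell (18.9%), against 15.8% and 14.6% of all named genes. The median difference of the family was 0.625. The risers spanned 0.85 to 6.16. AT5G64120, peroxidase 71, read 51.5 and 64.3 in zone 3 and 5234 and 5243 in zone 4 (6.16, SE 0.22, adjusted p = 6.92e-07). AT2G35380 read 3.16 and 3.81 in zone 3 and 746 and 1206 in zone 4 (5.63, SE 0.29, adjusted p = 3.64e-06). AT1G68850 read 13.7 and 26.9 and then 1228 and 1681 (5.35, SE 0.28, adjusted p = 3.58e-06). These 3 genes had means of 57.9 or less in every younger zone. AT5G66390, peroxidase 72, had 328 and 549 in zone 3 and 4882 and 4914 in zone 4 (3.48, SE 0.31, adjusted p = 4.78e-05). PRX52 had 18.5 and 23.9 and then 593 and 601 (4.05, SE 0.24).

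A few peroxidases went the other way and had been strong in zone 3. AT2G18980 read 6924 and 4877 in zone 3 and 76.3 and 127 in zone 4 (-5.66, SE 0.24, adjusted p = 1.49e-06). AT2G39040 read 1950 and 1773 and then 82.5 and 66.3 (-4.38, SE 0.15, adjusted p = 6.43e-07). AT4G11290 read 3069 and 2883 and then 273 and 116 (-3.93, SE 0.34, adjusted p = 3.97e-05). UPB1, the bHLH factor known for repressing peroxidase genes at the border between division and elongation, had means of 41.0 in zone 1 and 122 in zone 2. It read 1544 and 1112 in zone 3 and 55.4 and 39.4 in zone 4 (-4.4, SE 0.31, adjusted p = 1.43e-05).

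Genes of barriers and lignified walls that could be named were few, and those measured were higher in zone 4. HCT and CCR2, 2 enzymes of the pathway to lignin monomers, both rose: HCT read 1551 and 2124 in zone 3 and 6323 and 4677 in zone 4 (1.57, SE 0.18, adjusted p = 0.000193). CCR2 read 4.39 and 6.22 and then 520 and 459 (4.57, SE 0.21, adjusted p = 2.21e-06). IRX15, needed for xylan in secondary walls, read 7.33 and 11.3 in zone 3 and 134 and 131 in zone 4 (2.56, adjusted p = 2.32e-05). GUT2, another xylan gene, went from 119 and 130 to 260 and 281 (1.03, adjusted p = 0.000733). GSO1, a receptor kinase required for an intact Casparian strip, read 397 and 527 in zone 3 and 1226 and 983 in zone 4 (1.23, SE 0.25, adjusted p = 0.00508). FACT, which makes caffeate esters of fatty alcohols in root waxes, read 43.5 and 35.7 in zone 3 and 275 and 120 in zone 4 (1.84, SE 0.45, adjusted p = 0.013). The FACT call ended without zone 3 replicate 5 or 6 or zone 4 replicate 7, with adjusted p from 0.0531 to 0.0975. In the lipid transfer family 7 of 14 members rose (50%) and 3 fell (21.4%), against 15.8% and 14.6% of all named genes. AT2G48130 rose by 3.85 and AT5G05960 by 3.42, while AT2G45180 fell by 3.42 and AT1G62510 fell by 2.11.

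Wall-loosening families split, with strong members on each side. Among 19 expansins 6 rose (31.6%) and 5 fell (26.3%), against 15.8% and 14.6% of all named genes. The expansin median of 0.07 turned to -0.10 after median centring. EXLA2 read 289 and 332 in zone 3 and was low in zone 4 at 2.15 and 2.72 (-4.14, SE 0.20, adjusted p = 2.59e-06). EXPA8 read 368 and 335 and then 7.36 and 4.25 (-4.08, SE 0.23). EXPB1 fell by 3.23, and EXPA4 rose by 2.00 from low signals of 5.40 and 24.8 to 86.5 and 120. Of 10 XTH enzymes, which cut and rejoin xyloglucan, 3 rose and 4 fell. XTH16 read 513 and 604 in zone 3 and 19.1 and 19.7 in zone 4 (-4.02, SE 0.16, adjusted p = 1.01e-06), and XTH19 and XTH21 fell by 3.29 and 2.89. XTH20 read 148 and 93.7 in zone 3 and 1481 and 1721 in zone 4 (3.59, SE 0.25, adjusted p = 1.51e-05), and XTH32 rose by 1.85. The 5 CSLC genes, which encode synthases of the xyloglucan backbone and relatives, had a median of -1.02. CSLC6, CSLC04 and CSLC5 fell by 1.83, 1.13 and 1.02, and CSLC12 and ATCSLC08 stood at -0.18 (adjusted p = 0.627) and -0.61 (adjusted p = 0.0752). ATCSLC08 did pass after quantile normalization (adjusted p = 0.0219). The CSLC5 call ended without zone 3 replicate 5 or zone 4 replicate 7 (adjusted p = 0.0506 and 0.0509).

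The largest fall of any named gene was that of GH9B13, a glycosyl hydrolase of the cellulase-like family 9. It read 2450 and 2786 in zone 3 and 22.8 and 2.55 in zone 4 (-6.61, SE 0.33, adjusted p = 3.12e-06). Pectin methylesterases, which remove methyl groups from wall pectin, had strong single changes, while the counts lay near those of all named genes (15.8% rose and 14.6% fell): 8 of 41 measured members rose (19.5%) and 9 fell (22%). AT5G04970 read 1315 and 1145 in zone 3 and 2.68 and 1.96 in zone 4 (-6.08, SE 0.15, adjusted p = 1.04e-07), and AT3G10720 and AT2G47550 fell by 4.58 and 4.04. PMEPCRF read 384 and 430 in zone 3 and 2378 and 2610 in zone 4 (2.57, SE 0.15, adjusted p = 6.46e-06). AT1G05310 rose by 3.64 from low signals. Of 23 TBL proteins, a family with acetyltransferases of wall polysaccharides, 4 rose and 7 fell. TBL39 read 4643 and 3446 in zone 3 and 213 and 247 in zone 4 (-4.03, SE 0.15), TBL21 fell by 3.12, and TBL30 and TBL41 rose by 1.43 and 1.24. Of 13 extensins and leucine-rich repeat extensins, structural wall proteins, 5 rose and 1 fell. HRGP1 read 3400 and 4166 in zone 3 and 8030 and 9094 in zone 4 (1.18, adjusted p = 0.000161), and AT4G08410 rose by 1.89.

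The other named genes with the largest falls included AT4G25250, with 1545 and 1768 in zone 3 and 3.83 and 1.43 in zone 4 (-6.49, SE 0.24, adjusted p = 7.51e-07). AT5G12940 read 3459 and 2559 and then 8.91 and 51.5 (-6.19, SE 0.43). DRT100, named for DNA damage tolerance when its cDNA was put into bacteria, read 2900 and 2481 and then 36.5 and 15.5 (-6.05, SE 0.21). AT5G12940 was strong at the tip as well, with means of 4506 in zone 1 and 3754 in zone 2, so its signal was lost only at zone 4. AT1G54890, AT4G31470, AT5G60520 and AT5G48900 fell by 5.45, 4.73, 4.64 and 4.47. AT4G31470 had a mean of 11.3 in zone 1, whereas that of AT5G60520 was 4350.

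Most tubulin genes that could be named fell. Of 7 members of the tubulin list, 6 fell (85.7%) and none rose, with a median of -1.13. Of all named genes 14.6% fell and 15.8% rose. TUB1 read 4095 and 2892 in zone 3 and 253 and 232 in zone 4 (-3.74, SE 0.17, adjusted p = 1.97e-06). TUB5 read 2106 and 2066 and then 189 and 132 (-3.59, SE 0.15, adjusted p = 1.25e-06). TUA6, TUB7 and TUB9 fell by 1.88, 1.13 and 0.79, so all 5 tubulin genes on the list fell, by amounts that differed widely. The list also holds the tubulin folding factors POR, which fell by 0.59 (adjusted p = 0.0235), and PFI, at -0.31 (adjusted p = 0.19). The POR call ended without zone 3 replicate 5 or zone 4 replicate 8 (adjusted p = 0.136 and 0.104). ACT11, an actin gene, read 663 and 725 in zone 3 and 120 and 121 in zone 4 (-2.38, SE 0.14, adjusted p = 6.94e-06). ACT12, the other actin gene that could be named, was low in both zones and did not pass (-0.04, adjusted p = 0.916). Of 15 IQD proteins, a family with calmodulin-binding members that attach to microtubules, 2 rose and 7 fell. The largest falls were those of iqd33 and IQD19, at -3.11 and -2.98. Sequences of tubulin and actin genes are alike, and cross-hybridization between them was not tested.

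Ribosomal protein genes fell nearly throughout. Of 70 measured genes for the large (60S) subunit 58 fell (82.9%) and 1 rose. Of 45 for the small (40S) subunit 36 fell (80%) and 1 rose, whereas 14.6% of all named genes fell and 15.8% rose. The medians were -1.0 and -1.05. The counts of falls were 59 and 38 after quantile normalization. They were 60 and 40 after median centring, which lowers every difference and so is no check on a fall. In the test against a 2-fold change 3 genes of each list fell. AT5G22440 of the 60S list fell most, from 1299 and 1314 to 292 and 334 (-2.01, SE 0.10, adjusted p = 2.66e-06). AT3G10610 led the 40S list, from 1359 and 1288 to 394 and 443 (-1.63, SE 0.10, adjusted p = 6.81e-06). AT1G80750 was the 1 riser of the 60S list, from 240 and 250 to 404 and 422 (0.72, adjusted p = 0.0073). AT5G39850 was that of the 40S list, from 46.1 and 56.5 to 91.3 and 99.5 (0.73, adjusted p = 0.0104), and its call ended without zone 3 replicate 5 (adjusted p = 0.0633) or zone 4 replicate 8 (adjusted p = 0.0518). The same lists had already dropped one zone earlier, with 61 of the 60S and 39 of the 40S genes lower in zone 3 than in zone 2, where 20.3% of all probe sets were lower. That earlier comparison shares the zone 3 arrays.

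Some genes of division had already dropped before the step. All 4 measured histone H2B genes were lower in zone 3 than in zone 2. So were the 6 of the mitotic kinase and checkpoint list, whereas 20.3% of all probe sets were lower at that step. Of 3 genes on a list of kinesins and other microtubule proteins of division, 2 were higher and 1 lower in zone 3. On a histone list of 3 genes, which shares HTB2 with the H2B genes, 1 was higher and 2 were lower. The H2B genes, whose products package DNA, all fell again in zone 4, whereas 14.6% of all named genes fell and 15.8% rose. HTB1 read 679 and 563 in zone 3 and 177 and 204 in zone 4 (-1.62, SE 0.12, adjusted p = 1.83e-05), and HTB2, HTB11 and HTB4 fell by 0.76, 0.56 and 0.53. The calls of HTB4 and HTB11 ended without zone 3 replicate 5 or zone 4 replicate 7, with adjusted p up to 0.0747 and 0.095. The mitotic kinase AUR1 moved the other way, from 98.7 and 101 in zone 3 to 193 and 184 in zone 4 (0.81, SE 0.11, adjusted p = 0.000626). Its mean at the tip was 777, so zone 4 stayed far under zone 1. AUR2 rose by 0.92 from low signals, a call that ended without zone 3 replicate 5 (adjusted p = 0.065) or zone 4 replicate 8 (adjusted p = 0.0664). AUR3, BUBR1, BUB3.1 and BUB3.2, the other measured members of the mitotic kinase and checkpoint list, stood at 0.32, 0.75, 0.12 and 0.59 and did not pass, with the lowest adjusted p at 0.14. BUBR1 did pass without zone 4 replicate 7 (1.27, adjusted p = 0.0173), and BUB3.2 without zone 3 replicate 6 (1.01, adjusted p = 0.0197).

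**Figure D3:**
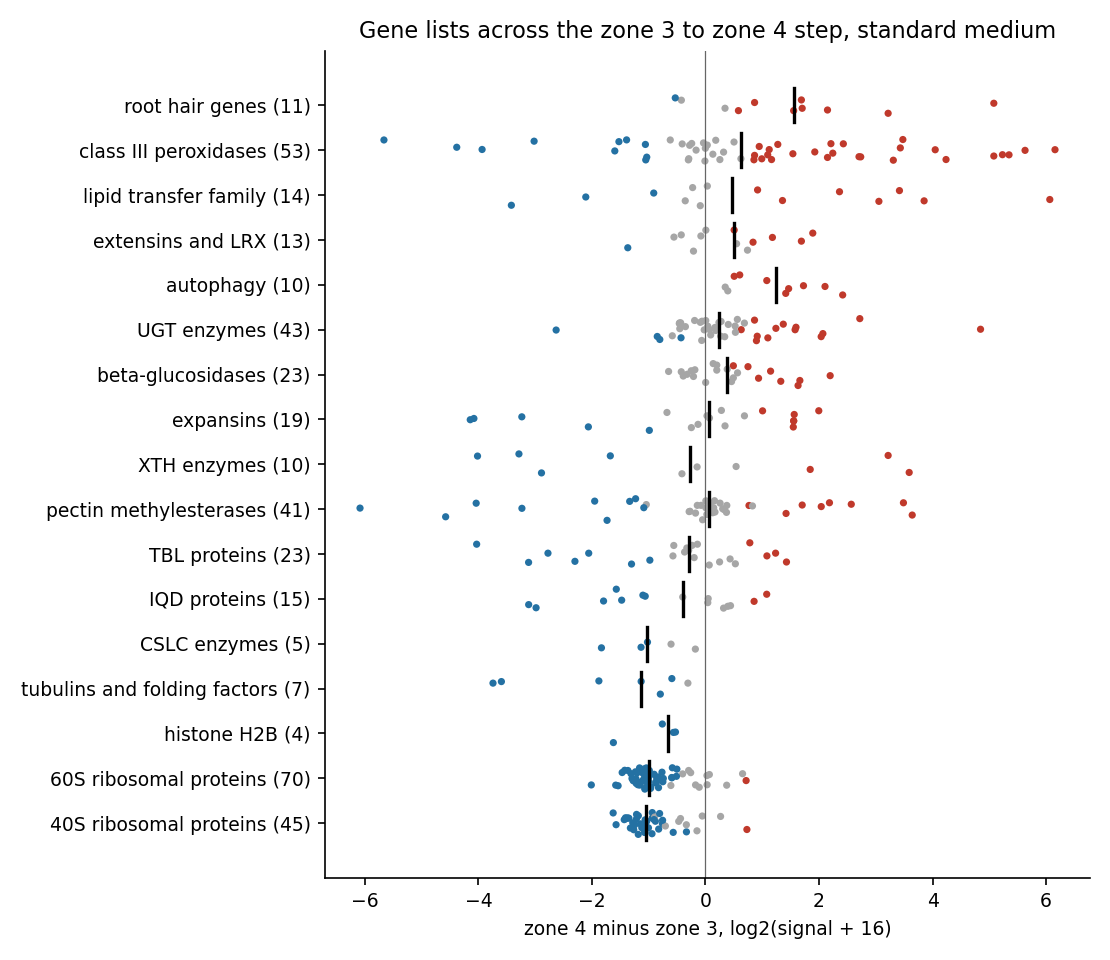
Difference between zone 4 and zone 3 on standard medium, in log2(signal + 16), for every measured member of 17 gene lists, with the number of members in brackets. Red points rose and blue points fell at an adjusted p under 0.05, grey points did not pass, vertical bars are list medians, and the vertical spread within a row has no meaning; ribosomal proteins cluster near -1 while peroxidases and wall enzymes spread to both sides.

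Auxin genes that could be named gave single changes. Of 6 GH3 genes 2 rose and 1 fell (-1.25), with a median of -0.098. Of 7 genes on the Aux/IAA list 1 rose and none fell, and 4 were low in both zones. Of 4 YUC genes of auxin synthesis 1 rose and none fell, with a median of -0.146. Of all named genes 15.8% rose and 14.6% fell. LBD16, a factor that starts lateral roots in response to auxin, read 102 and 86.0 in zone 3 and 330 and 385 in zone 4 (1.76, SE 0.25, adjusted p = 0.00068). LBD29, a relative with the same role, was low in zone 3 at 4.17 and 3.80 and read 31.8 and 56.2 in zone 4 (1.56, SE 0.22, adjusted p = 0.00065). GH3.3, which joins auxin to amino acids, read 2.80 and 9.92 in zone 3 and 338 and 877 in zone 4 (4.67, SE 0.40, adjusted p = 4e-05). The 2 zone 4 arrays were far apart for GH3.3, although both lay above both zone 3 arrays. IAA31, an auxin response repressor, rose by 1.87, and RR16, a cytokinin response regulator, rose by 2.68 from low signals. WAG2, a kinase that acts on auxin efflux carriers, read 585 and 463 in zone 3 and 92.9 and 68.1 in zone 4 (-2.49, SE 0.17, adjusted p = 1.25e-05).

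Genes of autophagy were higher in zone 4. ATG8 proteins, ubiquitin-like proteins that coat the membranes of autophagy, are encoded by 9 of the 10 members of the autophagy list. Of these 10 genes 8 rose (80%) and none fell, with a median of 1.25. Of all named genes 15.8% rose and 14.6% fell. Between zone 2 and zone 3, 8 of the 10 had already risen and 1 had fallen, with a median of 0.872. At that earlier step 19.4% of all probe sets rose. ATG8F read 768 and 847 in zone 3 and 3464 and 3584 in zone 4 (2.11, SE 0.09, adjusted p = 1.97e-06). ATG8B rose by 2.42 and ATG8E by 1.73. Of 23 genes on the beta-glucosidase list, 8 rose and none fell, and 13 were low in both zones. PYK10, the main enzyme of the endoplasmic reticulum bodies of roots, read 2450 and 1825 in zone 3 and 6290 and 7205 in zone 4 (1.66, SE 0.14, adjusted p = 4.29e-05), and BGLU27 rose by 2.2. Without zone 3 replicate 5, only 4 members of the beta-glucosidase list passed.

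For conjugating and oxidizing enzymes of secondary metabolism the counts are read against the 15.8% of named genes that rose and the 14.6% that fell. Of 24 cytochrome P450 genes 7 rose (29.2%) and 2 fell (8.3%), and of 12 glutathione S-transferases 5 rose (41.7%) and 2 fell (16.7%). Of the 24 P450 genes, 12 were low in both zones. Most of the 24 belong to the CYP71B group, so the counts do not stand for P450 genes at large. Of 43 glycosyltransferases of the UGT family 13 rose (30.2%) and 4 fell (9.3%), but after median centring 11 rose and 8 fell. UGT76C2, which joins glucose to cytokinins, was low in zone 3 at 3.94 and 5.19 and read 557 and 594 in zone 4 (4.85, SE 0.27, adjusted p = 4.57e-06). UGT87A2 rose by 2.72 and UGT71B1 fell by 2.63. CYP71B6, a cytochrome P450, read 156 and 153 in zone 3 and 2334 and 2389 in zone 4 (3.80, SE 0.24, adjusted p = 9.46e-06). Among glutathione S-transferases GSTF4 rose by 3.85 and GSTU28 fell by 2.00. Of 29 serine carboxypeptidase-like genes 5 rose (17.2%) and 6 fell (20.7%), near the shares of all named genes, and the largest changes were those of scpl28 at 3.73 and scpl40 at -3.94.

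Of the transporters named, the sugar exporters SWEET14 and SWEET13 rose by 2.97 and 2.54, and of 16 SWEET genes 4 rose and 1 fell. GTR2, a glucosinolate importer, rose by 2.50, and CHX16, of the cation/proton exchanger family, by 3.01. AT3G21670, on the list of nitrogen transporters, read 105 and 121 in zone 3 and was low in zone 4 at 4.59 and 3.59 (-2.68, SE 0.20, adjusted p = 2.19e-05). Of that list of 12, 2 rose and 5 fell. WRKY53, a transcription factor of ageing and defence, read 147 and 140 in zone 3 and 808 and 553 in zone 4 (2.1, SE 0.26, adjusted p = 0.00029). BZIP61 read 174 and 147 in zone 3 and was low in zone 4 at 1.68 and 2.08 (-3.30, SE 0.21, adjusted p = 9.68e-06). Of 22 bZIP factors 2 rose (9.1%) and 4 fell (18.2%), against 15.8% and 14.6% of all named genes.

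Transcripts of proteins linked to dehydration gave mixed results. Of 5 measured members of the abscisic acid and dehydration list 3 rose and none fell, whereas 15.8% of all named genes rose and 14.6% fell. Of 7 on a list of dehydrin and LEA genes, which shares LEA4-5 with it, 3 rose and 2 fell, with a median of -0.21. The falls were those of AtLEA4-1 (-1.25) and AT2G46140 (-0.66). LTI30, a dehydrin, read 1726 and 1789 in zone 3 and 6048 and 5582 in zone 4 (1.72, SE 0.11, adjusted p = 8.23e-06). COR47, another dehydrin, read 4786 and 5930 in zone 3 and 13303 and 11886 in zone 4 (1.24, SE 0.13, adjusted p = 0.000138). LEA4-5 was low in zone 3 at 11.3 and 2.97 and read 70.5 and 62.9 in zone 4 (1.86, SE 0.21, adjusted p = 0.000194). COR15A and COR15B, cold-induced proteins of plastids, were the other measured members of the first list, stood at 0.16 and -0.08, and did not pass.

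AT5G66390, AT4G13580, AT1G30750, AT3G25930, AT4G02090 and AT4G17215 rose from zone 2 to zone 3 and again from zone 3 to zone 4. AT4G13580 read 799 and 1304 in zone 3 and 9735 and 7799 in zone 4 (3.07, SE 0.43, adjusted p = 0.000598), with a zone 2 mean of 5.62. AT1G30750, AT3G25930, AT4G02090 and AT4G17215 rose by 3.2, 3.47, 3.67 and 3.73. AT2G39040, EXPA8, LEP, AT4G27480, AT2G37440 and UPB1 rose into zone 3 and fell in zone 4. LEP, an AP2-type transcription factor, had a zone 2 mean of 129, read 2216 and 1647 in zone 3 and dropped to 132 and 103 in zone 4 (-3.86, SE 0.19, adjusted p = 3.15e-06). AT4G27480 and AT2G37440 fell by 3.77 and 3.33. The 2 steps share the zone 3 arrays, so an error in a zone 3 signal moves both.

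The same step was taken on NaCl medium, with arrays that share none with the standard step. There 6385 probe sets (28.1%) differed between zones 3 and 4, with 14.7% of all probe sets higher and 13.4% lower in zone 4. Of the 4022 probe sets higher in zone 4 on standard medium, 2287 (56.9%) were also called higher on NaCl, which is 68.6% of the higher calls on NaCl. Of the 3491 lower ones, 2132 (61.1%) were also called lower on NaCl, which is 69.9% of the lower calls there. In opposite directions, 83 were called higher on standard medium and lower on NaCl, and 46 the reverse. Over all 22746 probe sets the 2 differences correlated at 0.769, a description only, since all arrays share the probe sets and the scaling. The difference between the steps was tested itself, and 1651 probe sets (7.26%) passed: 943 (4.15%) had the higher value on standard medium and 708 (3.11%) the lower. That count fell to 915 without zone 3 standard replicate 5, to 953 without zone 3 NaCl replicate 2 and to 1085 without zone 4 standard replicate 7. Of the largest risers, AT4G38080 and AT2G23540 rose by 8.10 and 8.56 on NaCl, and their difference between media did not pass (adjusted p = 0.87 and 0.15). Others of the same set did differ: the step of AT3G53980, AT2G37750 and AT2G38870 was higher on standard medium by 3.48, 2.78 and 2.23 (adjusted p = 0.00179, 0.00284 and 0.000134).

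**Figure D4:**
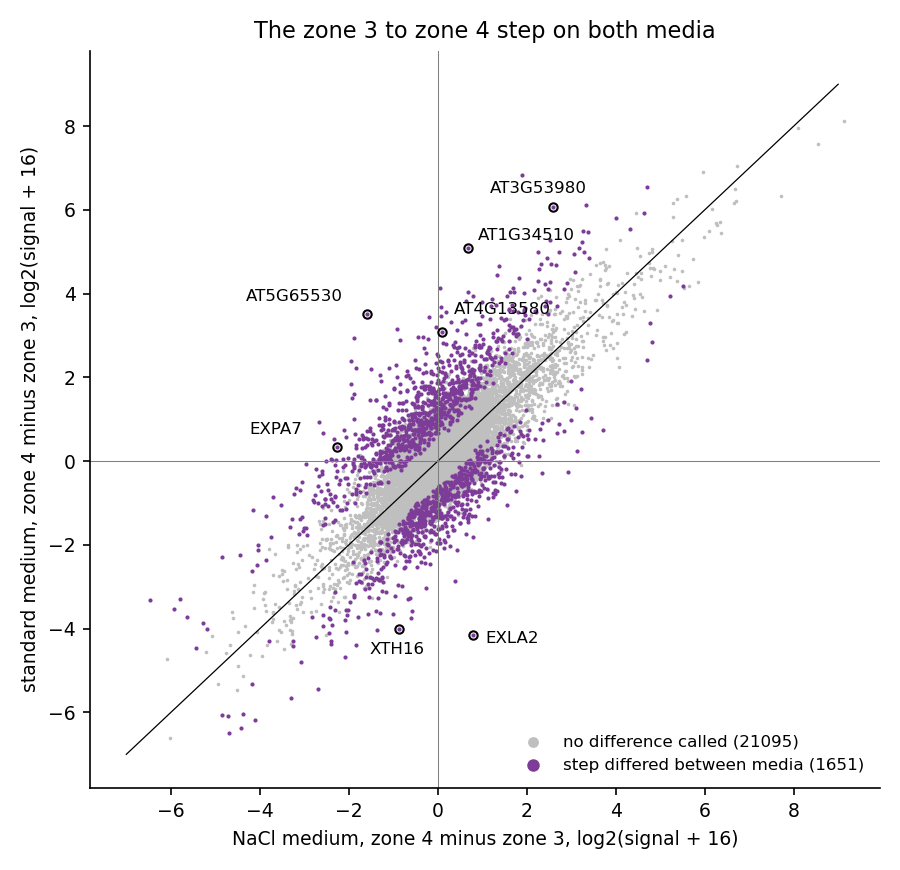
Difference between zone 4 and zone 3 in log2(signal + 16), on standard medium (vertical axis) against NaCl medium (horizontal axis), for 22746 probe sets. Purple points (1651) had a step that differed between media at an adjusted p under 0.05, the diagonal marks equal steps, and circles mark named genes; AT5G65530 and EXLA2 lie in quadrants of opposite sign.

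Many root hair genes differed between media. Of the first list of 6, 4 passed with a higher step value on standard medium and none with a lower one, 5 differences were positive and 1 negative, and their median was 1.05. Of the 11 genes on the list made later, all had the higher step value on standard medium and 10 passed. Their median difference was 2.29 and their median step on NaCl -1.19. Of all probe sets 4.15% passed with the higher value on standard medium. Both lists were made with earlier results of these data known, so these counts are a description only. EXPA18 read a mean of 2699 in zone 3 and 1175 in zone 4 on NaCl, a step of -1.19 against 1.55 on standard medium, a difference of 2.75 (adjusted p = 0.000212). EXPA7 averaged 4779 in zone 3 and 1006 in zone 4 on NaCl, a difference of 2.61 between the steps (adjusted p = 0.00126). For both genes the NaCl mean was above the standard mean in zone 3 and below it in zone 4. The difference was 4.4 for AT1G34510 (adjusted p = 1.6e-05), 2.65 for GH9C1 and 2.29 for AT4G26010, 2.41 for AT5G04960, 2.12 for AT3G49960, 1.35 for XTH26, 1.21 for AT3G54580 and 0.74 for SCN1. The XTH26 call ended without zone 3 standard replicate 5 or zone 4 standard replicate 7 (adjusted p = 0.0528 and 0.0526). That of AT3G54580 ended without any array of the 4 groups but zone 3 standard replicate 6 (adjusted p up to 0.153). That of SCN1 ended without zone 3 standard replicate 5, zone 4 standard replicate 7, either zone 3 NaCl array or zone 4 NaCl replicate 1 (adjusted p up to 0.137). With a pseudocount of 1 the calls of AT4G26010 and AT5G04960 ended (adjusted p = 0.0526 and 0.0639). Zone 3 arrays on NaCl correlated at 0.949 with zone 3 arrays on standard medium and at 0.913 with zone 4 arrays on standard medium. Zone 3 and zone 4 arrays on standard medium correlated at 0.879. Whether these correlations bear on the differences between media was not tested.

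Single genes were ranked among named genes that passed and had a mean of at least 200 in 1 of the 4 groups. The largest positive differences between media were those of AT5G65530, AT1G34510, AT1G03920, AT5G15180 and AT1G44970. AT5G65530 read 65.0 and 210 in zone 3 and 1301 and 1823 in zone 4 on standard medium (3.52, SE 0.45), and on NaCl its mean fell from 1714 to 556 (-1.59), a difference of 5.12 (adjusted p = 0.000219). AT1G03920 and AT5G15180 also rose on standard medium, by 2.38 and 2.21, and fell by 1.96 and 1.5 on NaCl. Within the same limit EXLA2 had the largest negative difference, -4.93 (adjusted p = 0.000686): its zone 3 mean on NaCl was 19.7 and its zone 4 mean 41.6. XTH16 had a zone 3 mean of 43.7 and a zone 4 mean of 16.9 on NaCl (difference -3.14, adjusted p = 0.000105). For both of these wall genes the zone 3 mean on NaCl was far below that on standard medium. AT2G47550, AT5G62340 and AT5G52760 had differences of -2.67, -3.24 and -2.62, and the call of AT5G52760 ended with a pseudocount of 1 (adjusted p = 0.0783). For LTI30 the step was 0.13 on NaCl, where its means were 11054 and 12077, a difference of 1.59 (adjusted p = 8.42e-05).

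**Figure D5:**
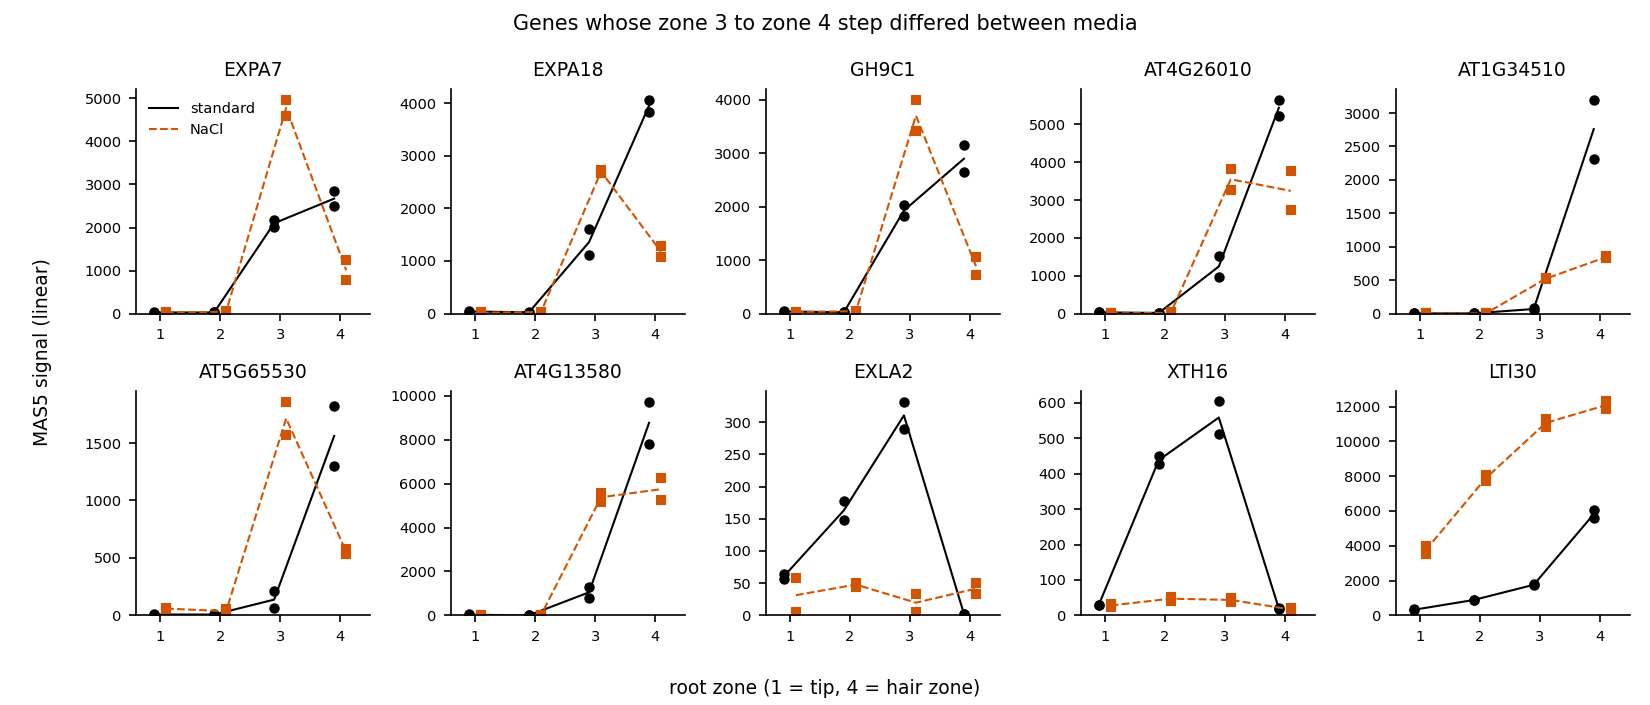
Linear MAS5 signal in the 4 zones for 10 named genes whose step differed between media; circles and solid lines are standard medium, squares and dashed lines NaCl medium, points are single arrays (2 per zone and medium) and lines join the means. The means of the hair genes EXPA7, EXPA18 and GH9C1 are highest in zone 3 on NaCl and in zone 4 on standard medium. On standard medium the EXPA7 difference between zones 3 and 4 did not pass, and the GH9C1 call ended after median centring. EXLA2 and XTH16 lack their zone 3 peak on NaCl.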

How the data were processed

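Affymetrix ATH1 arrays were hybridized with biotin-labelled RNA from root sections, amplified with a 2-cycle protocol, per the labels' protocols. The deposited values are signal intensities on a linear scale that the authors made with MAS5, per the submitters' processing notes; the version, detection calls, scan details and genome build are not given in the sources used here, so no batch could be examined. No array column was left unused for lack of a label (0 such columns).

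Of 22810 probe sets, 64 controls were left out. The probe table names 1 gene for 13513 of the 22746 tested, several for 503 and none for 8730, which were tested but are unnamed. A TAIR10.1 annotation table served for names only. For the 152 genes with several probe sets, the one with the highest mean stood for the gene; calls were not alike within 41 of these genes and opposite within 1.

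Signals were used as log2(signal + 16) without further normalization. A mean for each of the 4 standard zones was fitted to 8 arrays with limma 3.58.1 in R 4.3.3 (lmFit, eBayes with a trend). This fit had 4 residual and 4.50 prior degrees of freedom. The NaCl step and the difference between media were fitted to all 16 arrays (8 residual degrees of freedom). All tests were two-sided, with Benjamini-Hochberg adjustment over the 22746 probe sets and a threshold of 0.05. Precision is limited by 2 arrays per group: the SE of a zone difference had a median of 0.21. The procedure was tested on simulated data.

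Named genes came from 4 rules: the 12 largest increases and 12 largest decreases among called genes with non-overlapping arrays and a mean of at least 200 in the higher zone; members of gene lists, all of them in lists of up to 8 and otherwise up to 3 called genes in each direction with a mean of at least 100; the 5 largest differences between media in each direction among called genes with a mean of at least 200 in 1 of the 4 groups; and 6 genes of each of 2 profiles over the zones. Some of these are left out of the text, and a few list members outside the rule (AT3G49960, AT5G04960, AT3G07900 and AT5G39850) were added after their values were seen. The gene lists, the members of families and the comparison were chosen with earlier results of these data known. Alternatives were the pseudocount, 2 other scalings, 2 filters on dim signals, the variance trend, the arrays in the fit, a test against a 2-fold change, the replicate number as a block and leaving out single arrays.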

Additional observations from a re-analysis of the deposited data

Results flagged for a closer look

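Of the 148 genes described above, 60 were singled out because the zone 3 to zone 4 step differed between standard and NaCl medium by the test of the difference itself (limma, adjusted p under 0.05). The values are the step on standard medium minus the step on NaCl, in log2(signal + 16). For 43 genes the step had the higher value on standard medium. Among hair genes and peroxidases the difference was 4.4 for AT1G34510, 3.71 for AT5G15180, 3.63 for AT1G44970, 2.75 for EXPA18, 2.65 for GH9C1, 2.61 for EXPA7, 2.48 for AT5G66390, 2.41 for AT5G04960, 2.29 for AT4G26010, 2.12 for AT3G49960, 1.35 for XTH26, 1.21 for AT3G54580 and 0.74 for SCN1. Among wall proteins and enzymes it was 2.56 for CSLC12, 2.40 for TBL41, 2.03 for PMEPCRF, 1.41 for AT4G08410, 1.36 for HRGP1, 1.27 for XTH32 and 0.836 for HCT. Among genes known only by locus it was 5.12 for AT5G65530, 4.34 for AT1G03920, 3.61 for AT4G02090, 3.48 for AT3G53980, 3.39 for AT3G25930, 3.23 for AT1G30750, 2.98 for AT4G13580, 2.78 for AT2G37750, 2.42 for AT4G17215, 2.23 for AT2G38870 and 0.963 for AT5G48900. Among hormone, signalling and metabolic genes it was 3.28 for GH3.3, 2.40 for UGT76C2, 2.23 for UGT87A2, 1.81 for IAA31, 1.57 for WAG2, 1.41 for LEP, 1.34 for RR16 and 1.32 for GSO1. For ATG8E and ATG8F it was 2.03 and 1.32, and for the dehydrins LTI30 and COR47 it was 1.59 and 1.24.

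For 17 genes the step had the lower value on standard medium. Wall genes gave -4.93 for EXLA2, -3.14 for XTH16, -2.67 for AT2G47550, -1.87 for CSLC04 and -1.37 for AT5G04970. Ribosomal protein genes gave -1.06 for AT3G10610 and -0.892 for AT5G22440, and the histones HTB1 and HTB4 gave -1.15 and -0.802. The other values were -3.24 for AT5G62340, -2.64 for BZIP61, -2.62 for AT5G52760, -2.37 for AT2G18980, -2.08 for AT5G12940, -1.79 for AT4G25250, -1.37 for scpl40 and -1.20 for DRT100. Of the 60 calls, 40 were kept under every alternative that gave the gene a value and 20 were lost under at least 1. Leaving out single arrays ended the calls of AT3G54580, AT4G08410, AT4G17215, AT5G12940, AT5G22440, AT5G48900, DRT100, GSO1, HCT, HRGP1, IAA31, RR16, SCN1, XTH26, XTH32 and scpl40. For AT3G54580 and XTH32 7 of the removals did so, and for AT4G08410, GSO1 and HCT 6 did. The calls of AT4G26010, AT5G04960, AT5G52760 and AT5G66390 ended under 1 other alternative each. No group had the 4 arrays that a search for outlying arrays needs.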

How the results depend on the processing

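Each count of calls (all, higher and lower) for the step on standard medium stayed within 1.5 times its value under every alternative except the test against a 2-fold change, which called 1620 probe sets (952 higher, 668 lower) and 123 list members in place of 396. Without single arrays the step called 5832 to 7272 probe sets (3100 to 3885 higher, 2732 to 3387 lower) and 339 to 386 list members, and the zone 2 to zone 3 step 7120 to 9060 (3568 to 4398 higher, 3497 to 4662 lower). A zone left with 1 array was assumed to vary like the others. The difference between media called 915 to 1390 (562 to 788 higher, 353 to 603 lower). Median centring called 7671 (3114 higher, 4557 lower). Of the 133 genes described whose step passed, 36 did not pass the test against a 2-fold change and 11 lost the call under some other alternative; none turned its direction. With a pseudocount of 1 the calls of GH9C1 and AT5G04960 ended (adjusted p = 0.0695 and 0.0533), and median centring ended that of GH9C1 (adjusted p = 0.119). With a pseudocount of 64 the difference between media of AT3G10720 turned to -0.68 (adjusted p = 0.0367). The causes were not tested. No paired analysis was possible for the step on standard medium because its zones share no replicate numbers. For the difference between media, the replicate block called 1604 in place of 1651. Replicate deviations of NaCl zones 3 and 4 correlated at 0.00859. With 2 arrays per group, that value cannot show whether the replicate numbers mark a shared origin. With 2 arrays per group and no detection calls, changes of dim genes are the least certain.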
